A study of Mus musculus with 2 samples.

Results

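The DEAD-box and DEAH-box helicases were taken as the protein-coding genes whose symbol starts with Ddx or Dhx followed by a digit, leaving out the cytosolic RNA sensors Ddx58 and Dhx58 and the Y-linked Ddx3y. This gave 50 genes, 35 Ddx and 15 Dhx, of 22028 protein-coding genes and 55536 annotated genes. Their RNA was measured in the nuclei of mouse bone-marrow-derived macrophages of the C57BL/6J strain, primary cells grown from marrow. Both libraries belong to 1 group: cells were treated with lipid A, the part of bacterial lipopolysaccharide that Toll-like receptor 4 recognises, at 100 ng/ml for 12 h, kept without it for 12 h and given it again at 100 ng/ml for 50 min. Total RNA of the fraction, which the labels call nucleoplasmic in one field and nuclear in others, was depleted of ribosomal RNA and sequenced from 500 ng of RNA in replicate 1 and 1 µg in replicate 2. The labels number the libraries as biological replicates and give both the same donor entry. No unstimulated or singly stimulated library was analysed here, so the values describe levels in 1 condition, transcript make-up, and the difference between the 2 libraries.

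RNA helicases of these families bind RNA and use ATP to unwind short duplexes or to remodel complexes of RNA and protein. DEAD-box proteins open short duplexes locally, and many DEAH-box proteins move along the RNA and are driven by partner proteins that carry a G-patch. In the nucleus they take part in transcription, in each step of splicing, in mRNA export and in the assembly of ribosomal subunits, while others act in the cytoplasm on translation and mRNA decay or in innate immunity.

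The families are named after motif II, the stretch that binds and hydrolyses ATP, so the symbols were set against the coding sequence. In the longest annotated coding sequence of each gene (GENCODE M21), codons for Asp-Glu-Ala-Asp stood in frame in 27 of 35 Ddx genes, and codons for Asp-Glu-Ala-His in 8 of 15 Dhx genes. The same codons were found in 135 (0.619%) and 66 (0.303%) of 21816 other protein-coding genes. The coding bases are shown for 2 abundant DEAD-box genes, 2 DEAH-box genes and Ddx11, with the last codon, the one that separates Asp from His, as the final 3 bases.
Ddx5: gatgaagctgat
Ddx3x: gatgaagctgac
Dhx15: gatgaggcccat
Dhx38: gatgaggcccac
Ddx11: gacgaggctcac
Ddx11, a DNA helicase of sister chromatid cohesion, was the only Ddx gene with the DEAH form. Dhx29 held the Asp-Glu-Ala-Asp codons, at codon 1118 of 1365. The search covered the whole reading frame, so such a match need not be motif II. Neither form was found in 13 members, and only in these were other forms looked up. Of these, Ddx39 and Ddx39b held codons for Asp-Glu-Cys-Asp, and Ddx21, Ddx28 and Ddx50 for Asp-Glu-Val-Asp. Codons for Asp-Glu-Ile-His stood in Dhx9 and Dhx36, and those for Asp-Glu-Val-His in Ddx60, Dhx30, Dhx34 and Dhx57. Ddx52 and Dhx32 held none of the forms looked up.

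The gene-level tables held 20612078 counts in replicate 1 and 22772081 in replicate 2, of which the 50 genes took 0.424% and 0.411%. All 8 macrophage markers lay above the 90th percentile of protein-coding genes, led by Lyz2 at 1032 and 989 TPM (counts divided by effective transcript length and scaled to the same total in each library). Markers of T, B and NK cells summed to at most 0.05 TPM in either library, and those of neutrophils, fibroblasts, red cells and megakaryocytes to at most 1.5 TPM. Protein-coding genes held 21% and 22% of all gene-level TPM, so TPM values are low in absolute terms and are read here against other protein-coding genes. In the index-based transcript table the protein-coding share was 14.5% and 7.04%, and members there had a median of 0.671 and 0.310 of their gene-level TPM, so its TPM values were not compared between libraries.

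Nearly the whole family was detected, and a few genes made up most of its RNA. Of the 50 genes, 48 (96.0%) had 10 or more counts in both libraries, against 50.4% of protein-coding genes, and 45 had 100 or more. The median member stood at 4.14 TPM (mean of the libraries), beside 3.59 TPM over the 12140 protein-coding genes that reached 10 counts in all. Above that median lay 29 members, and 5 of the 50 lay above the 90th percentile of 28.7 TPM, the same share as the definition gives for protein-coding genes. The summed TPM of the family was 861 in replicate 1 and 901 in replicate 2. Ddx5 alone was 33.3% and 36% of it, and the 5 most abundant genes together were 64.2% and 68.6%.

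**Figure D1:**
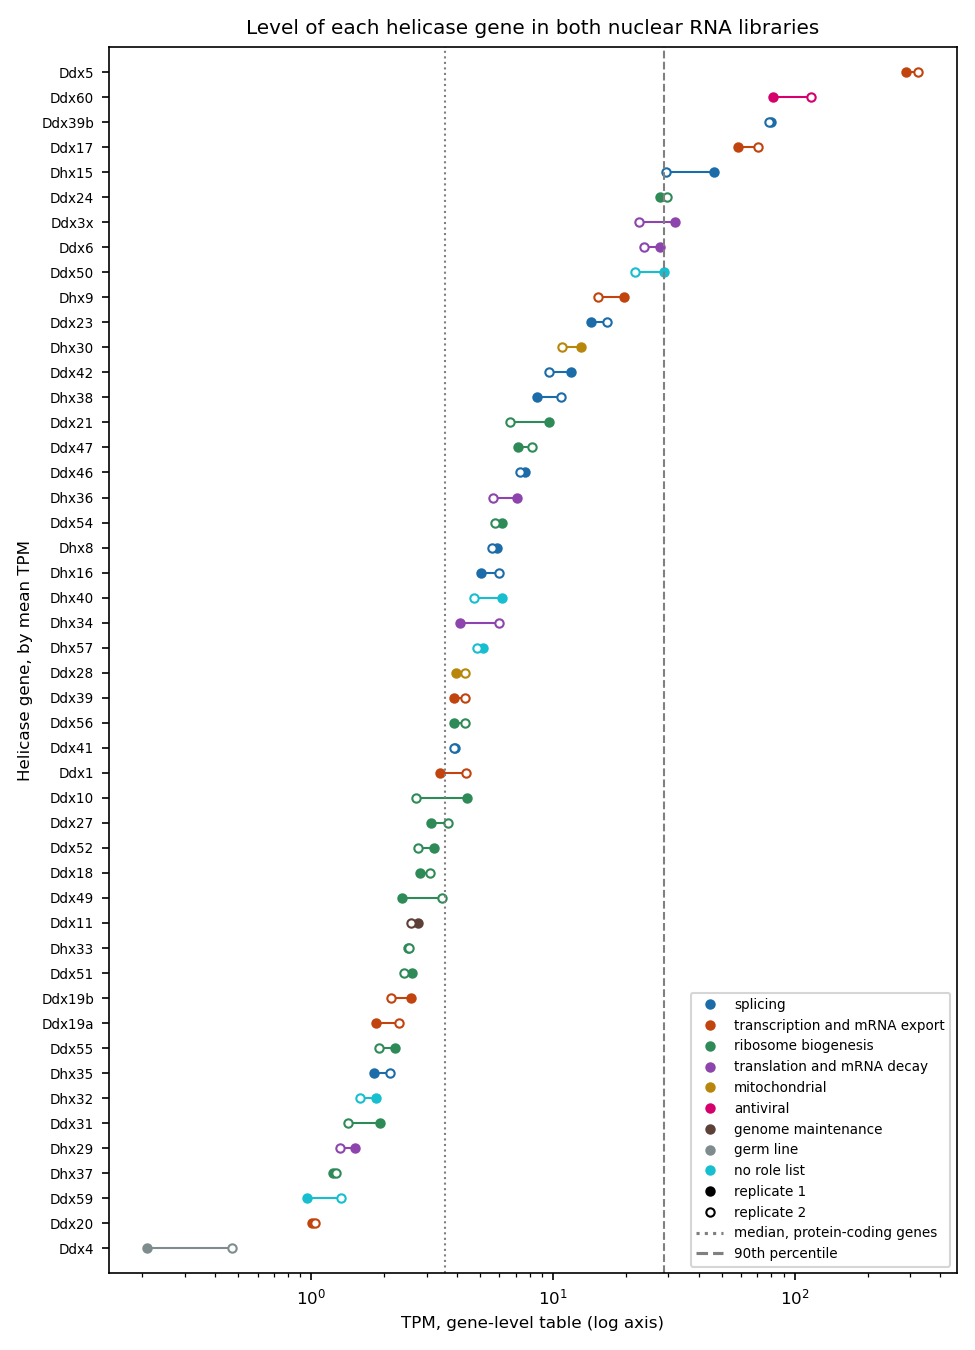
Level of the 48 helicase genes with at least 10 counts in each library, as gene-level TPM on a log axis; filled points are replicate 1, open points replicate 2, colours are role groups, and the dotted and dashed lines are the median (3.59 TPM) and 90th percentile (28.7 TPM) of protein-coding genes. Ddx5 stands apart at 287 and 324 TPM, and the ribosome biogenesis genes sit mostly below or near the median.

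The genes of transcription and mRNA export ranged more widely in TPM than any other role group, from 1.03 TPM for Ddx20, a member of the SMN complex, to 306 TPM for Ddx5. Ddx5, a coregulator of transcription and splicing, lies on chr11:106780355-106789185 (minus strand) and had 287 and 324 TPM in replicates 1 and 2, a mean of 306 ± 26.4 (SD, n = 2). It ranked 74th of 12140 protein-coding genes and stood 3.10-fold above the next gene with a Ddx or Dhx symbol, Ddx60. These are gene-level values over all transcripts. In the alignment-based transcript table, transcripts not annotated as coding took 69.0% and 77.2% of Ddx5 TPM, and 14.6% and 22.3% of Ddx60 TPM. Ddx17, a close paralog of Ddx5 (chr15:79527736-79546741, minus strand), had 58.4 and 70.1 TPM. At gene level, both values of Ddx5 exceeded both values of every other member. The lead of Ddx5 therefore describes all transcripts of each gene and not the coding ones alone. Dhx9, an unwinder of double-stranded RNA that bridges transcription factors and RNA polymerase, had 19.6 and 15.4 TPM. Ddx39, an export helicase, had 3.89 and 4.34 TPM, about the level of the median protein-coding gene. The pore-associated Ddx19a and Ddx19b, which release mRNA from export factors, lay next to each other on chromosome 8 with a gap of 5387 bp and stood at 1.85 and 2.31 TPM and at 2.58 and 2.13 TPM.

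The splicing helicases lay above the protein-coding median in 9 of 10 cases, with a group median of 8.60 TPM. Ddx39b, which helps the U2 particle bind and also acts in mRNA export, lies on chr17:35241746-35253707 (plus strand) and had 79.6 and 78.1 TPM, the closest agreement among the 5 most abundant members. Dhx15, which takes the spliceosome apart, had 46.4 and 29.3 TPM. Its replicate 1 value was 1.56-fold its replicate 2 value by scaled counts. Ddx23, a component of the U5 particle, had 14.3 and 16.7 TPM, and Ddx41, found in late spliceosomes, 3.94 and 3.91 TPM. The lowest at gene level was Dhx35 at 1.81 and 2.11 TPM. Within this 1 pathway the gene-level means of the libraries thus ran from 78.9 TPM for Ddx39b to 1.96 TPM for Dhx35. In the index-based table Dhx35 was not the lowest, with 6.96 and 2.43 TPM beside 2.48 and 1.10 TPM for Ddx41.

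The 15 ribosome biogenesis helicases had a median of 3.0 TPM, and 5 lay above the protein-coding median. Ddx24 led them at 27.6 and 29.5 TPM. Ddx21, a nucleolar helicase that also binds at Pol II genes, had 9.66 and 6.61 TPM, while its neighbour and paralog Ddx50, 13613 bp away on chromosome 10, had 28.8 and 21.7 TPM. At gene level, over all transcripts, Ddx50 was thus above Ddx21 in each library, by more than the libraries differed. In the alignment-based transcript table, transcripts not annotated as coding took 73.6% and 63.6% of Ddx50 TPM, against 30.7% and 13.6% of Ddx21 TPM. The gap therefore describes all transcripts of each gene and not the coding ones alone. Ddx47, Ddx54, Ddx56 and Ddx49 ranged from 2.37 to 8.20 TPM, and Dhx37 was lowest at 1.23 and 1.26 TPM.

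Among the translation and decay helicases, Ddx3x, an X-linked helicase that helps structured mRNAs start translation, had 31.9 and 22.6 TPM. Ddx6, a repressor of translation in P bodies, had 27.8 and 23.9 TPM. Dhx36, which unwinds G-quadruplexes, had 7.07 and 5.63 TPM, Dhx34, a factor of nonsense-mediated decay, 4.13 and 6.00 TPM, and Dhx29, a scanning factor, 1.51 and 1.31 TPM. The mitochondrial helicases Dhx30 and Ddx28 had 13.1 and 10.9 TPM and 3.97 and 4.34 TPM, and the cohesion helicase Ddx11 had 2.77 and 2.59 TPM. Whether nuclear RNA tracks the protein or the cytoplasmic mRNA was not measured.

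The germ-line helicases were at or near 0. Ddx25 had 0 counts in replicate 1 and 1 in replicate 2, where 0 counts allow up to 0.146 CPM (3 counts, scaled to the library total, counting error only). Ddx43 had 1 count in each library. Ddx4, the Vasa helicase of germ cells, had 18 and 41 counts, or 0.21 and 0.47 TPM. Ddx4 was the only member of the 3 with 10 or more counts in both libraries.

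Among the Ddx and Dhx genes, Ddx60 was the second most abundant and the only one in the antiviral group. This large protein, induced by interferon and by virus infection, is encoded on chr8:61928087-62038244 (plus strand). Its level was 81.4 and 116 TPM, a mean of 98.8 ± 24.6 (SD, n = 2), and it ranked 317th of 12140 protein-coding genes. The list of 15 interferon-stimulated genes kept beside it lay above the 90th percentile without exception, with a median of 195 TPM. That list ran from 43.8 TPM to 876 TPM for Rsad2, so Ddx60 fell within its range.

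Since Ddx60 is known to be interferon-induced, its promoter was searched for the core that IRF and ISGF3 factors bind, a pair of GAAA half-sites with a spacer. The 250 bases before the RefSeq start (GRCm38.p6, chr8:61927837-61928086, plus strand) are printed with matches to GAAANCGAAA in capitals.
Ddx60 promoter: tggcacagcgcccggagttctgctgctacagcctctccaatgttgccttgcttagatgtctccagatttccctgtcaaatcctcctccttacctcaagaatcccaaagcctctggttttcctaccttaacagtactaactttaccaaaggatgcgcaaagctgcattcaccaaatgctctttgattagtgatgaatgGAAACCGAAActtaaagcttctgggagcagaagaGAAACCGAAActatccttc
The 2 matches, both GAAACCGAAA on the printed strand, lie 53 to 44 and 19 to 10 bases before the start. Searched on both strands of the 300-base windows, GAAANCGAAA was found in 0.265% of 32851 promoters of all genes, or 0.315% of 27025 genes. Ddx60 was the only one of 45 members with a promoter in the table to hold it. The looser GAAANNGAAA, which contains it, was in 3.44% of all promoters (3.99% of genes) and in the members Ddx60 and Ddx49. TGACTCA, an AP-1 site that overlaps neither pattern, was in 5.20% of promoters (5.95% of genes) and in the member Dhx32. These matches describe letters only, and binding was not measured.

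The difference between libraries was small for most members. For each of 16140 genes, the split of counts between the libraries was set against TMM-scaled library sizes by an exact binomial test (two-sided, Benjamini-Hochberg adjusted), and a gene was called at an adjusted p under 0.05 with at least a 2-fold difference. Of the 48 members tested, 1 (2.08%) was called, against 6.65% of all genes (4.63% higher and 2.01% lower in replicate 2) and 4.14% of protein-coding genes. Low counts weigh on these shares: among genes with at least 100 counts in each library, 0 of 45 members were called by the same test, beside 1.99% of 8641 genes. The called member was Ddx4, higher in replicate 2 by 1.10 on the log2 scale (adjusted p = 0.0176 by the exact binomial test) on 18 and 41 counts. With the edgeR exact test and a dispersion set to 0.01 or 0.04, which allows for spread between cultures, 0 members were called, beside 4.6% and 1.21% of all genes. The index-based table gave 1 called member of 48, beside 9.26% of all genes. With 1 library on each side the binomial p-values cover counting error only.

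Leaving out the fold minimum, 21 members had an adjusted p under 0.05 by the same exact binomial test. This was 43.8% of members, beside 38.8% of all genes. At 100 counts or above in each library it was 20 of 45 members, beside 55.2% of all such genes, so the order depended on the counts compared. Direction was mixed, with 22 of the 48 tested members higher and 26 lower in replicate 2 at any size (18 higher when scaled by library totals). The median log2 ratio of the members (replicate 2 over replicate 1) was -0.043, beside 0.0057 over all genes tested and -0.026 over protein-coding genes. The members ranged from -0.71 to 1.10.

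**Figure D2:**
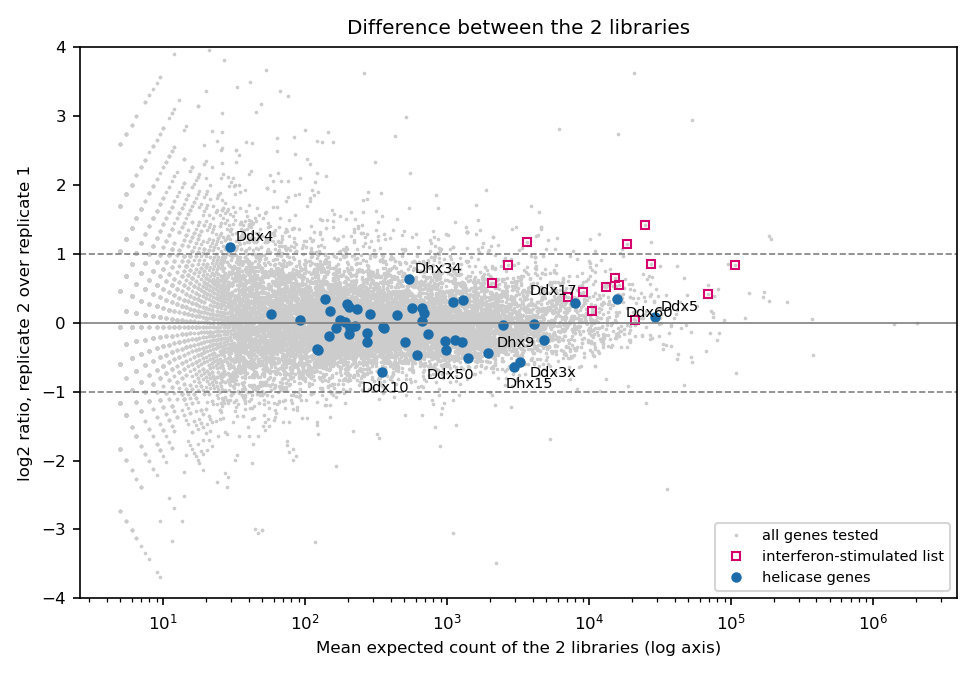
Log2 ratio of replicate 2 over replicate 1 against the mean expected count (log axis), for all genes tested (grey), the 48 helicase genes tested (blue) and 15 interferon-stimulated genes (open squares); dashed lines mark 2-fold, and 97 genes beyond 4 on the log2 scale are not drawn. Apart from Ddx4 the helicases lie inside the 2-fold lines, and the interferon-stimulated genes all lie above 0.

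The 3 members with the largest log2 ratios at 100 counts or above in each library were Ddx10, Dhx15 and Dhx34. Ddx10, a ribosome biogenesis helicase, had 427 and 273 counts, a log2 ratio of -0.71 (adjusted p = 1.19e-09, exact binomial test). Dhx15 had 3533 and 2366 counts, a log2 ratio of -0.64. Dhx34 had 410 and 667 counts, a log2 ratio of 0.64, in the opposite direction. None of the 3 reached a 2-fold difference.

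Several abundant members were lower in replicate 2, at log2 ratios of -0.57 for Ddx3x, -0.51 for Ddx50, -0.44 for Dhx9, -0.40 for Dhx36, -0.27 for Ddx21 and -0.25 for Ddx6. Others were higher: Ddx17 by 0.28, Ddx23 by 0.30 and Dhx30 by 0.21. Ddx5 and Ddx39b differed little, at 0.081 and -0.016. Dhx30 was higher by counts but lower by TPM in replicate 2. TPM also depends on the estimated transcript lengths, whose part was not tested.

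Ddx60 had 13585 and 18114 counts, a log2 ratio of 0.35 (adjusted p = 5.93e-100, exact binomial test). All 15 interferon-stimulated genes were likewise higher in replicate 2 with an adjusted p under 0.05, beside 19.7% of all genes, and 3 of them were called at 2-fold, beside 4.63% of all genes. Their log2 ratios ran from 0.037 to 1.42, with a median of 0.57. The 19.7% and 4.63% include genes at low counts, while all 15 had 100 or more counts in each library. Among all genes at that depth, 55.2% had an adjusted p under 0.05 in either direction by that test. Of these 8641 genes, 135 were called higher in replicate 2. The summed level of that list was 3190 TPM in replicate 1 and 5227 TPM in replicate 2. The replicates also differed in RNA input, and the part of either in the Ddx60 value was not tested. In bulk RNA, fewer cells with a transcript and less of it per cell cannot be told apart.

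Transcripts annotated as retaining introns were estimated in these nuclei for most helicase genes that have one, and their share depended on how it was measured. The annotation gives 39 of the 50 genes at least 1 transcript of the retained-intron type, and 37 of these had 100 or more counts in both libraries. In the index-based table, such transcripts made up a median of 32.8% of the TPM of these 37 genes, beside 27.4% over 5156 protein-coding genes picked the same way. In the alignment-based table the order of the medians was the opposite, 20.0% for the members and 21.4% for the protein-coding genes. As a share of estimated counts, which gives short transcripts less weight than TPM does, the medians were 11.7% and 15.8% in the index-based table. Shares above 50% were found in 6 members (16.2%) by the index-based table, beside 16.2% of the protein-coding genes. All transcripts that are not protein-coding took a median of 37.8% of member TPM, beside 40.9%, in the index-based table. The annotated type also covers transcripts that only extend into an intron: of 97 retained-intron transcripts of members, 39 held a whole intron of a coding transcript.

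**Figure D3:**
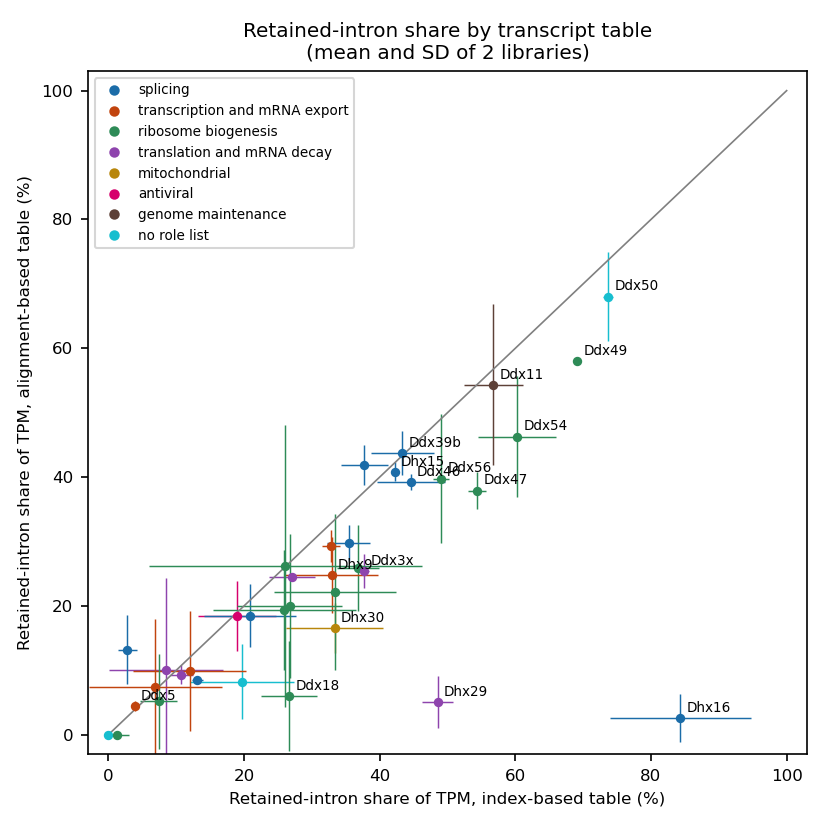
Share of each gene's transcript TPM in annotated retained-intron transcripts, by the index-based table (horizontal) and the alignment-based table (vertical), for 37 helicase genes; points are means and bars the SD of the 2 libraries, coloured by role, with the line of equality. Most genes lie near or below the line, Ddx50 and Ddx49 are high in both tables, and Dhx16 and Dhx29 are high only in the index-based one.

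The 8 members with the highest retained-intron shares were Dhx16, Ddx50, Ddx49, Ddx54, Ddx11, Ddx47, Ddx56 and Dhx29. Of these, 4 belong to the ribosome biogenesis group, which supplied 12 of the 37 genes and had a group median of 30.1%, beside 37.7% for the 9 splicing genes. Ddx50 had 74.1% and 73.2% by the index-based table and 72.9% and 63.1% by the alignment-based one. Ddx49 had 68.9% and 69.3%, and 57.8% and 58.1%. These 2 genes kept more than 50% of their TPM in such transcripts in each library and table. Ddx54 (64.4% and 56.2%), Ddx47 (55.2% and 53.5%) and Ddx56 (48.2% and 49.9%) fell to means of 46.3%, 37.9% and 39.8% in the alignment-based table, and Ddx11 moved from 56.7% to 54.3%.

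The values of Dhx16 and Dhx29 depended on the table. Dhx16, a splicing helicase that acts just before the first catalytic step, had 91.6% and 77.0% by the index-based table and 0% and 5.19% by the alignment-based one. The difference lay in Dhx16-202, a transcript of 825 bases with 1366 and 439 estimated counts in the index-based table and 0 and 6.82 in the alignment-based one. Dhx29 had means of 48.5% and 5.12% in the 2 tables. The lowest retained-intron shares were in Dhx32 (0% in both tables), Dhx37 (1.25% by the index-based table) and Dhx35 (2.79%), the last with 13.2% in the alignment-based table. All transcripts not annotated as coding took 96.9% and 83.5% of Dhx35 TPM in the index-based table. In the alignment-based table they took 56.7% and 22.2%.

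**Figure D4:**
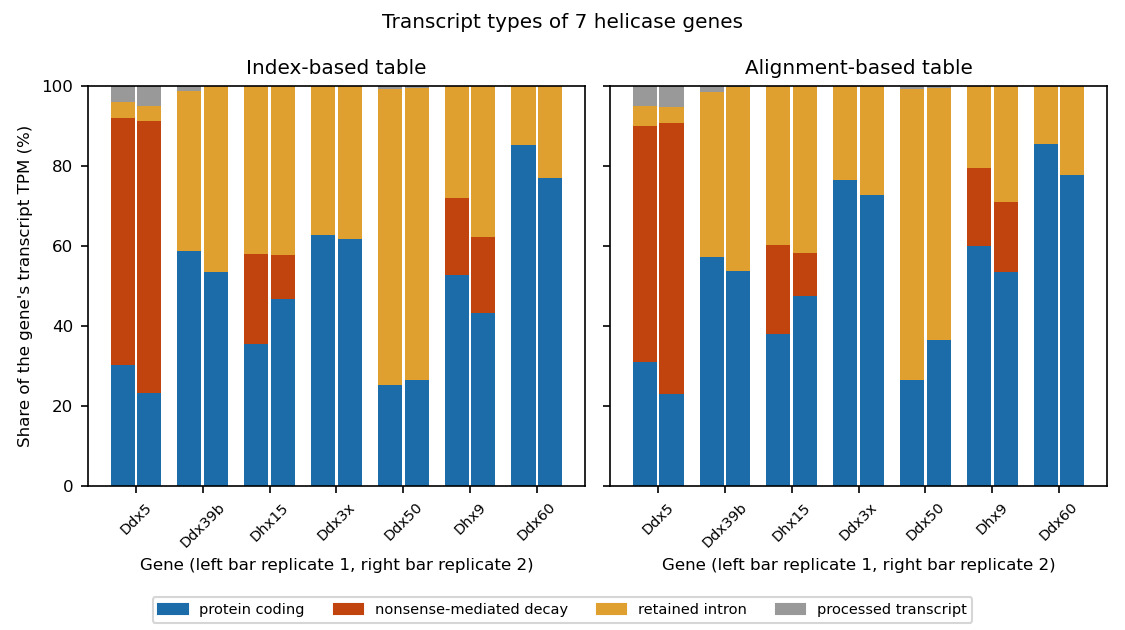
Share of transcript TPM by annotated transcript type for 7 helicase genes, in the index-based table (left panel) and the alignment-based table (right panel); in each pair the left bar is replicate 1 and the right bar replicate 2. The nonsense-mediated decay type takes most of Ddx5, and the retained-intron type most of Ddx50, in both tables.

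Ddx5, the most abundant member, had only 3.86% and 3.88% of its TPM in the retained-intron type, but 62.0% and 67.9% in transcripts annotated for nonsense-mediated decay, by which cells destroy mRNAs with an early stop codon. The alignment-based table gave 58.9% and 68.1%. In the index-based table, the median share was 14.2% over the 12 members with such a transcript and at least 100 counts per library. The 12 include Ddx5. Over 2545 protein-coding genes picked the same way the median was 7.70%, and 3.03% of them exceeded 50%. In the alignment-based table the medians were 8.63% for the members and 4.43% for the protein-coding genes. The main transcript, Ddx5-208, held 35.7% and 45.3% of the TPM in the index-based table and 54.1% and 57.3% in the alignment-based one. It keeps the whole of intron 11 of the 12 introns of the coding Ddx5-201, 1265 bases on chr11:106782694-106783958, an intron that overlaps the microRNA gene Mir3064 on the same strand. Ddx5-201 itself had 15.8% and 12.6%, and 28.9% and 19.3%. Ddx5-208 was thus above Ddx5-201 in each library and table. By structure, the Ddx5 transcript with the highest estimated share was an intron-retaining one whatever its label. Reads in introns or across splice junctions were not counted. Retained introns therefore cannot be told apart from precursor RNA not yet spliced, here or for the other shares. The ends of intron 11 are shown on the transcript strand, with the splice-site dinucleotides in capitals.
Ddx5 intron 11 start (chr11:106783939-106783968): agagggctagGTtagtacaaactcgaattc
Ddx5 intron 11 end (chr11:106782684-106782713): cacactgcaacaccttacAGatgtggaaga
Counting every transcript not annotated as coding that keeps a whole intron, a measure chosen after Ddx5 was seen, the member median was 8.67% and the protein-coding median 0.0% in the index-based table. The alignment-based table gave 13.2% and 0.0%. Shares above 50% by this measure were about as frequent in both sets. They were found in 1 member (2.70%) in each table, beside 2.97% of protein-coding genes in the index-based table and 2.79% in the alignment-based one.

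Other abundant members also had intron-bearing transcripts, and the boundaries below show where examples depart from the coding transcript, not always the most abundant ones, again with the intron's first or last 2 bases in capitals (mm10, transcript strand).
Ddx39b intron 6 start (chr17:35249060-35249089, plus strand): catgcaagatGTaaatacccttctaccttc
Ddx50 intron 1 start (chr10:62651005-62651034, minus strand): gcggcaaaagGTgtgctgcggctgggccgc
Ddx50 intron 2 start (chr10:62646894-62646923, minus strand): agcagaggagGTacacagcagactattgca
Ddx3x intron 11 start (chrX:13289530-13289559, plus strand): ggaaatacagGTactattctgtaattttca
Ddx3x intron 11 end (chrX:13289817-13289846, plus strand): agaatggctttcttcttcAGatgctggccc
Dhx15 intron 9 start (chr5:52160873-52160902, minus strand): gacccaccagGTatgactgacaacagcgcc
Dhx15 intron 9 end (chr5:52160412-52160441, minus strand): agattgcctttttctcttAGctcctgaaac
Each boundary carries the usual GT or AG.

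Ddx39b-204 reads through the end of exon 6 and on for 801 bases of intron 6, and it held 40% and 46.7% of the gene's TPM in the index-based table and 41.3% and 46.1% in the alignment-based one. The coding Ddx39b-201 had 50.0% and 39.7%, and 48.7% and 40.6%. The 2 transcripts therefore changed places between the libraries in both tables. In Ddx50, Ddx50-204 reads from exon 1 into 2532 bases of intron 1 and held 20.9% and 16.8% of TPM (index-based table), and a retained-intron transcript of 1500 bases enters intron 2 for 923 bases and held 13.1% and 14.6%. A shorter one of 584 bases held 20.3% and 18.9% in that table and 16.1% and 7.59% in the alignment-based one. Another of 558 bases held 16.4% and 18.9%, and 10.7% and 14.6%. The coding Ddx50-201 had 24.2% and 26.4%.

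In Ddx3x, a retained-intron transcript of 1003 bases keeps intron 11 of 16, 297 bases, and held 15.6% and 15.6% of TPM in the index-based table and 16.6% and 17.1% in the alignment-based one. Another of 792 bases held 16.6% and 17.3%, but 4.73% and 5.18% in the alignment-based table. The retained-intron share of Ddx3x in all was 37.3% and 38.2%, and 23.6% and 27.3%, with a mean of 8.59% as a share of estimated counts. Intron 9 of 13 of Dhx15 (471 bases) is kept in Dhx15-204, which held 18.4% and 19%, and 20.2% and 20.0%. The retained-intron share of Dhx15 as a whole was 42.1% and 42.3%, nearly the same in both libraries although its count differed between them.

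A decay-annotated transcript of Dhx15 differed between the libraries. Dhx15-207 held 22.4% of TPM in replicate 1 and 11.0% in replicate 2 by the index-based table, and 22.4% and 10.6% by the alignment-based one. It uses a 3′ splice site 8 bases inside exon 11, so that the first 8 bases of the exon, in capitals, are left out. They end in AG.
Dhx15 exon 11 start (chr5:52157548-52157577, minus strand): TCCCACAGtgttttgttcgccccacggagg
Dhx9 also had such a transcript. Dhx9-209 held 19.4% and 18.1% of TPM, and 19.5% and 17.6% in the alignment-based table. It includes an exon of 139 bases, chr1:153476424-153476562, that overlaps no exon of a coding Dhx9 transcript and holds the stop codon shown in capitals.
Dhx9-209 stop codon (chr1:153476506-153476535, minus strand): ctttaagcctggcTGAgaaacatactgtca
The Dhx9 share was about the same in both libraries, unlike that of Dhx15.

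Several members share reads or positions with other genes. Expected counts were not whole (beyond 0.005) in 9 members (18.0%), beside 26.9% of protein-coding genes, so that part of their reads was divided with another gene. These were chosen after their values were seen: Ddx5, Ddx6, Ddx18, Ddx19a, Ddx19b, Ddx39, Ddx49, Ddx54 and Dhx32. Another annotated gene overlaps 20 of the 50 members, beside 56.4% of protein-coding genes, and 13 have such a gene on the opposite strand. Ddx39, for instance, overlaps 3642 bases of Adgre5, which had 916 and 1177 counts beside 211 and 254 for Ddx39. Small RNA genes lie inside 5 members on the same strand, and all had 0 counts. The families are spread over 15 chromosomes, with 7 genes each on chromosomes 8 and 11.

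The genes that work with these helicases were given by list. Of 10 measured helicases of the same superfamily with other names, 7 lay above the protein-coding median and 3 above the 90th percentile, led by the translation initiation helicase Eif4a1 at 120 and 126 TPM. Of these, 9 were tested and 0 were called between libraries by the exact binomial test with the 2-fold minimum, beside 6.65% of all genes. Of 13 spliceosome proteins of the U5 and SF3b particles, 10 lay above the median, with Sf3b1 highest at 92.5 and 66.9 TPM. Of 13 mRNA export genes 6 lay above it, led by Nxf1 at 85.8 and 73.3 TPM, and of 9 exon junction genes 8 did, led by Acin1. Among 16 genes for G-patch cofactors, which switch on DEAH helicases, 10 were above the median, with Rbm5 highest at 57.2 and 51.5 TPM. Of 7 eIF4A cofactors 6 were above it and 4 above the 90th percentile. In these 5 lists 3 genes were called between libraries, each with under 100 counts in both libraries. Sf3b5 (1 of 13 tested) and Nxt1 (1 of 13) were higher and Nkrf (1 of 16) was lower in replicate 2. None of the 9 exon junction genes and 7 eIF4A cofactors was called. Over all genes the share called was 6.65%. Each list's median log2 ratio lay between -0.29 and 0.00047.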

How the data were processed

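The authors deposited, for each library, a gene-level and an alignment-based transcript table with expected counts (estimated reads per feature, not always whole) and TPM, and an index-based transcript table with estimated counts and TPM. Per the file headers the assembly is mm10 and the annotation GENCODE M21. The aligner, the quantification tools and the use of strand were named in no label or file header used here. Totals were 20612078 and 22772081 counts. Rows naming no gene held 0.144% and 0.0810% of counts and were left out. Expected counts were rounded. Coordinates, transcript types and transcript sequences came from GENCODE M21, and promoters from RefSeq (GRCm38.p6), where 45 of 50 members matched by symbol.

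TMM factors came from edgeR 4.0.16 in R 4.3.3. With 1 library against 1, genes with 10 or more counts in all were compared by a two-sided exact binomial test (scipy 1.17.1), Benjamini-Hochberg adjusted, with 0.5 added to counts for ratios. Tested on data simulated with counting error only (16140 genes, 200 changed by 1.5 on the log2 scale), it called 99.5% of the changed genes. The changed genes were picked among those with 100 or more counts in all, so lower counts and spread between cultures were not covered. Nothing in the labels shows separate animals, so the spread may be technical. Alternatives were other scalings (DESeq2 1.42.0, totals), filters, tables, set dispersions and each library alone.

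The helicases, lists and tests were chosen with earlier results of these data known. Text names the 12 most abundant members, called members, the 3 largest ratios at 100 or more counts in both libraries, the 8 highest and 3 lowest retained-intron shares, members under 10 counts, 12 set genes and, by role, examples. A further stretch of sequence is not reported here.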

Additional observations from a re-analysis of the deposited data

How the results depend on the processing

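No paired analysis was possible because the series has 1 group. The median member TPM of 4.14 was 2.36 in the index-based table, 19.2 when TPM was rescaled to protein-coding genes and 4.57 over members with 10 or more counts in both libraries. Above the 90th percentile lay 9 members in the index-based table and 10 with no filter, beside 5. The member called (1) became 0 with 100 or more counts in both libraries and with edgeR's exact test at dispersions of 0.01 and 0.04. The 1073 genes called became 172 with that filter, 2312 in the index-based table and 196 at a dispersion of 0.04, and the share higher in replicate 2 moved from 69.7% to 44.4% in the index-based table. The median retained-intron share of 32.8% was 20.0% in the alignment-based table, 11.7% of estimated counts, 29.6% at 10 or more counts and 8.67% for transcripts that keep a whole intron, the one alternative chosen after seeing the data. The non-coding share of 37.8% was 25.8% and 20.5% under the first 2 of these. The log2 ratios of Ddx39b and Dhx16 turned to 0.086 and -0.56 in the index-based table, and that of Dhx37 to -0.061 with library totals. The causes were not tested.

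Each library alone gave 48 detected members, medians of 4.05 to 4.36 TPM, 4 to 7 members above the 90th percentile, retained-intron shares of 29.4% to 33.7% and non-coding shares of 37.3% to 41.0%. Under library totals, DESeq2 size factors and the index-based table, the other log2 ratios of named members kept their sign and call; Ddx4 lost its call under the settings given above. Depth limits the germ-line members, with at most 41 counts in a library.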
